A study of Mus musculus with 8 samples.

Results

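The constitutive proteasome genes were followed across the livers of 8 female Ames dwarf mice. The members were the genes whose single annotated symbol begins with Psma, Psmb, Psmc, Psmd, Psme, Psmf or Psmg and a digit, without the interferon inducible Psmb8, Psmb9, Psmb10, Psme1 and Psme2. This gave 42 of the 8251 named genes on the array, each read from its brightest probe set, and 39 of them were bright enough to test, among 4869 such genes in all. The 42 were 7 alpha ring genes, 7 beta ring genes, 6 ATPase genes, 14 Psmd genes classed here as non-ATPase, 2 activators and 4 Psmg assembly chaperones. The Psmd class holds subunits of the regulatory particle and also the chaperones Psmd5, Psmd9 and Psmd10. The last 2 genes, Psmc3ip and Psme3ip1, are taken by name although their products are partners of a subunit or activator and not subunits. No probe set carried a Psmf symbol.

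The mice form 1 group, with 1 Affymetrix U74Av2 array per liver. All were homozygous for the Ames dwarf allele (df/df), a mutation known to stop the pituitary from making prolactin, growth hormone and thyrotropin, and all ate 30% less of a standard pelleted diet than df/df females with free access to it. Their age at death was 24 to 26 months. Freely fed dwarfs and mice lacking the allele were not analysed here, so the comparisons are between individual livers, and nothing below measures the diet or the mutation. Values are deposited intensities on a linear scale, and an intensity depends on the probes, so levels were compared between mice and not between genes.

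The proteasome degrades proteins that carry ubiquitin chains. Its core particle is a barrel of alpha rings, which gate the entrance, and beta rings, in which Psmb5, Psmb6 and Psmb7 hold the active sites. The regulatory particle binds the barrel, takes up the ubiquitinated substrate through its non-ATPase subunits and unfolds it with a ring of ATPases. Under interferon gamma the subunits Psmb8, Psmb9 and Psmb10 take the places of Psmb5, Psmb6 and Psmb7 in newly made particles, which are then called immunoproteasomes.

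Promoter sequence was set beside the expression values for the catalytic pairs Psmb5 with Psmb8 and Psmb6 with Psmb9. The same was done for Psma1 and Psma5, whose levels come up below. The 250 bases before the annotated start (RefSeq, GRCm38.p6) lie at chr14:54617996-54618245, minus strand for Psmb5, at chr17:34197945-34198194, plus strand for Psmb8, at chr11:70525107-70525356, plus strand for Psmb6 and at chr17:34187331-34187580, minus strand for Psmb9. Those of Psma1 lie at chr7:114276117-114276366, minus strand and those of Psma5 at chr3:108256676-108256925, plus strand. Each is written 5′ to 3′ in the direction of its gene, and capitals mark TGACNNNGC, the form of the antioxidant response element, or CCAAT, on either strand.
Psmb5: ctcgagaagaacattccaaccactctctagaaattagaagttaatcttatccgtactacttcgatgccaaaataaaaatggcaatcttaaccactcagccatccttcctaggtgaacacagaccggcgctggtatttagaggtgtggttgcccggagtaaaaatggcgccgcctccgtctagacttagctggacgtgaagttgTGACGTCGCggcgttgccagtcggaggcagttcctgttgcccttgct
Psmb8: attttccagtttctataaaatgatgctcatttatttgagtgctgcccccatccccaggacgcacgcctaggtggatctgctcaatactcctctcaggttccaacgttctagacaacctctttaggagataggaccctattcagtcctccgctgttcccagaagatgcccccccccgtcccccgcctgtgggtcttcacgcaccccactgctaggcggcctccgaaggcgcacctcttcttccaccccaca
Psmb6: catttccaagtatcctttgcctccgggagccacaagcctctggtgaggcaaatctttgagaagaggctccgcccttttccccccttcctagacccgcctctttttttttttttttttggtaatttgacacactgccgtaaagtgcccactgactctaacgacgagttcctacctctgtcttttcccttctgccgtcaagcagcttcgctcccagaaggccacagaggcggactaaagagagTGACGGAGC
Psmb9: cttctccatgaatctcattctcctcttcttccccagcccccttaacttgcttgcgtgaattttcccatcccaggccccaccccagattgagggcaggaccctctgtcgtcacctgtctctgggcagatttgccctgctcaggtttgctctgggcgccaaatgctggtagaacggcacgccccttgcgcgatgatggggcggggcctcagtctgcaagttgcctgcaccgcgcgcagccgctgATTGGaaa
Psma1: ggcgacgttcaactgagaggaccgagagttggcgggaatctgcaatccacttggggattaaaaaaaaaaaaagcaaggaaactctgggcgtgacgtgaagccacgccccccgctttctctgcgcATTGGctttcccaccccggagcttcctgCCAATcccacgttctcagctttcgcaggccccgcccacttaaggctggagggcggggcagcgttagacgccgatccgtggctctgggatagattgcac
Psma5: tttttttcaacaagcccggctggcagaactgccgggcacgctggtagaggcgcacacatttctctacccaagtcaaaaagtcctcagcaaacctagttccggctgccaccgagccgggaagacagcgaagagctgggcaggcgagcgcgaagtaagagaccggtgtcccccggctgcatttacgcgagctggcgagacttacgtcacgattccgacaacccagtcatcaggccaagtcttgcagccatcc
Both constitutive catalytic genes shown held TGACNNNGC, and the inducible genes beside them did not. Psmb7 was not among the members with a RefSeq promoter, so its pair with Psmb10 is not shown. The window of Psmb10 held neither motif. Over 300 bases (250 before to 50 after the start, both strands), 6 of 38 windows of the 35 members with a RefSeq promoter held TGACNNNGC (15.8%), beside 12.4% of all 32851 windows. The 6 genes were Psmb5, Psmb6, Psmc6, Psmd12, Psmd9 and Psme4. CCAAT lay in 14 of the 38 windows (36.8%), beside 37.4% of all windows, and in 0 of the 38 did the motifs overlap. Neither share stood far from that of all windows.

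Before the members were read, the labels and arrays were checked. The liver label fitted its markers, with all 7 hepatocyte genes bright enough to test and albumin (Alb) between 23417 and 35343. The arrays had been scaled to a common trimmed mean, with medians from 145.6 in mouse 5 to 177 in mouse 8. Mouse 5 stood apart in some checks and not in others. The ratio of the 3′ to the 5′ Gapdh probe set, which rises when RNA is shortened, was 2.67 there, while the remaining 7 arrays gave 0.794 to 1.07. That for pyruvate carboxylase was 40.7, against 2.64 to 9.17 on the remaining arrays. The same ratio for actin was 1.6 in mouse 5, inside the 1.45 to 2 of the rest. Xist, which marks an inactive X chromosome and so the female label, was 95.8 there, against 442 to 1572 on the remaining arrays, so mouse 5 went against its label in this check. The median SD, the slopes of Psma5 and Psma1 and the correlation of Psmb6 with Psmb9 are also given without it.

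The constitutive genes were nearly level between livers. The highest mouse exceeded the lowest by 1.38-fold at the median member and by less than 2-fold in 38 of 39 members (97.4%, beside 76.6% of all tested genes). Psme4 had the narrowest range, 1.2-fold, and Psmd5 the widest, 2.76-fold. The SD of log2 intensity over the 8 mice had a median of 0.17 over the members and of 0.23 over all genes, and it was under that value in 35 of 39. Bright genes vary less on these arrays, but the variance relative to that of genes of like brightness had a median of 0.588 in the members against 1.04 in all genes, and 29 of 39 lay under the latter. Leaving out mouse 5, the median SD was 0.15 in the members and 0.214 in all genes.

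In an F test of each variance against that of genes of like brightness, 0 of 39 members passed at an adjusted p under 0.05, as did 0% of all 4869 genes. The lowest adjusted p on the array in this F test was 0.265. Even the inducible Psmb8, with a range of 18.5-fold, had 0.308, so the 0 of 39 says little of the members. At an unadjusted p under 0.05 there were 0 of 39 members, beside 5.65% of all genes, and the lowest p of a member was 0.0742, for Psmd5. A chi-square test, which takes the expected variance as exact, called 1 member, Psmd5 (adjusted p = 0.000115), beside 16.7% of all genes. In its brightest probe set, no member had 1 mouse set apart from the others by Dixon's test (0 of 39), beside 8.69% of all genes. In bulk liver, fewer cells of a type and less RNA per cell cannot be told apart.

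**Figure D1:**
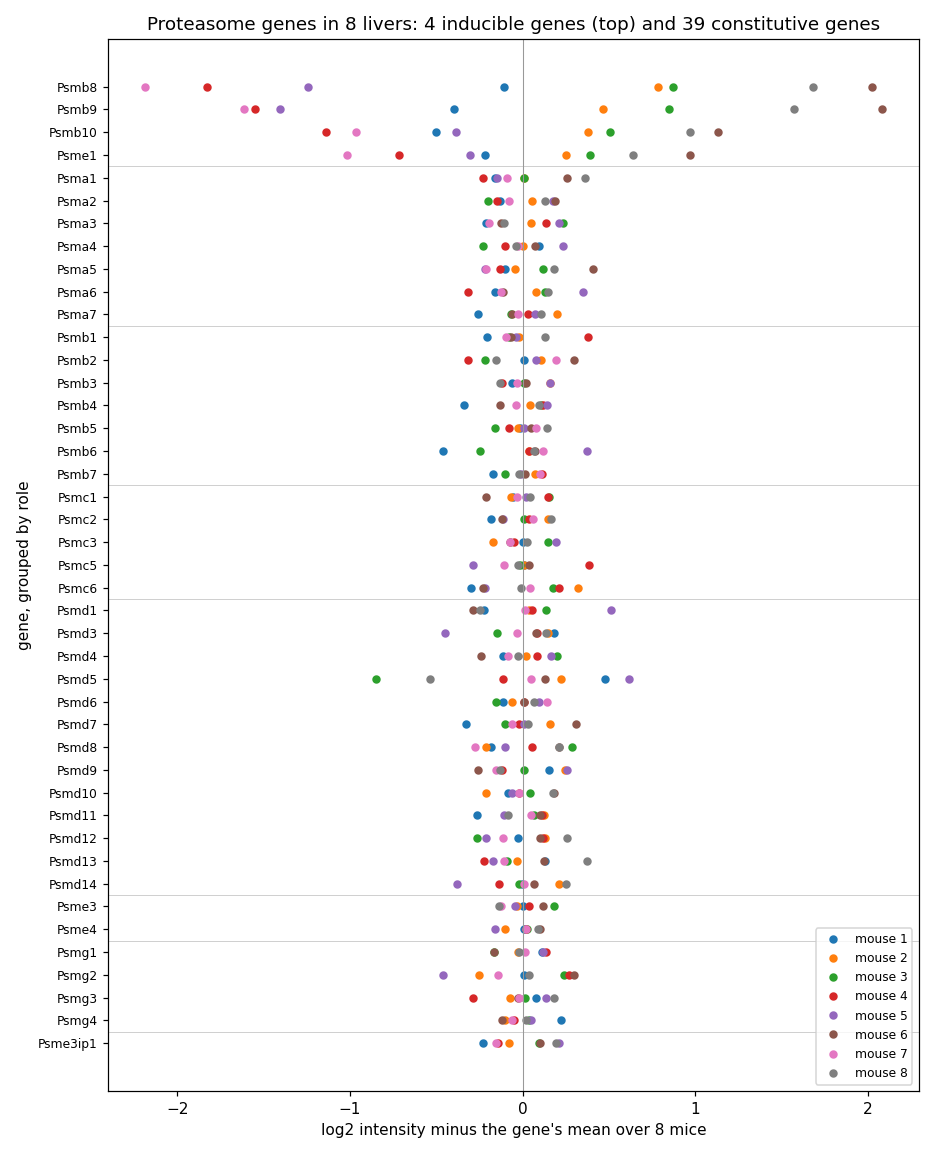
Each point is a mouse, placed along the horizontal axis by how far its log2 intensity lies from the average of that gene. The 4 inducible genes at the top range from 3.96-fold to 18.5-fold, while 38 of the 39 constitutive genes below, grouped by role with grey lines, range less than 2-fold.

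**Figure D2:**
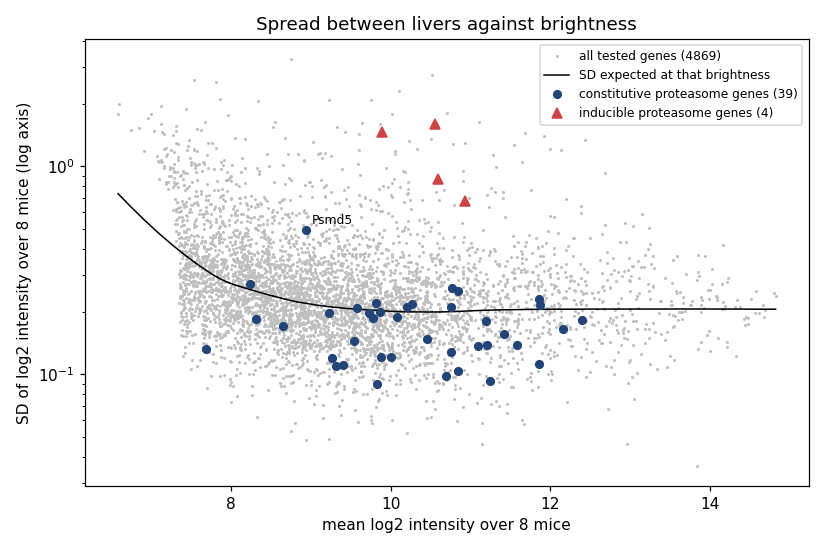
The SD of log2 intensity over the 8 mice (log axis) is plotted against the mean log2 intensity for all 4869 tested genes (grey), the 39 members (circles) and the 4 inducible genes (triangles), with the SD expected at each brightness as a line. Of the members, 35 lie under the median SD of all genes, and Psmd5 lies highest.

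Among the catalytic subunits, Psmb5, which carries the chymotrypsin-like site, read 2400, 2379, 2171, 2298, 2442, 2504, 2559 and 2669 in mice 1 to 8. Its highest value, in mouse 8, was 1.23 times its lowest, in mouse 3. Psmb7, which carries the trypsin-like site, read 1475, 1744, 1546, 1792, 1645, 1675, 1777 and 1633 in mice 1 to 8, a range of 1.22-fold. Psmb6, with the caspase-like site, read 1333, 1880, 1545, 1879, 2377, 1923, 1988 and 1916 in the same order. Its range of 1.78-fold was the widest in the beta ring, and its highest value fell in the mouse with the highest Gapdh ratio, whose part in it was not tested.

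The inducible subunits that replace them did not stay level. Psmb8 read 1403, 2602, 2766, 425, 639, 6130, 332 and 4835 in mice 1 to 8, with mice 6 and 8 at the top and mice 7, 4 and 5 at the bottom. Psmb5 read 2504 and 2669 in the former and 2559, 2298 and 2442 in the latter, so its values overlapped. The ratio of Psmb8 to Psmb5 changed 18.9-fold from mouse 7 to mouse 6, that of Psmb9 to Psmb6 13.8-fold from mouse 5 to mouse 6, and that of Psmb10 to Psmb7 5.15-fold from mouse 4 to mouse 6. The inducible partners alone ranged 18.5-fold, 12.9-fold and 4.81-fold, and the constitutive partners 1.23-fold, 1.78-fold and 1.22-fold.

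None of the 3 pairs passed a test of correlation over the 8 mice, and the sign for Psmb5 turned with the scaling (-0.46 with arrays scaled to a common median). Psmb5 against Psmb8 gave r = 0.123 (p = 0.769) and rho = 0.119 (p = 0.793) in exact two-sided permutation tests. Psmb6 against Psmb9 gave r = -0.211 (exact permutation p = 0.609) and rho = -0.143 (p = 0.752). Psmb7 against Psmb10 gave r = -0.276 (exact permutation p = 0.497) and rho = -0.429 (p = 0.299). The adjusted p over the 3 pairs was 0.769 for each r and 0.793 for each rho in these permutation tests. Without mouse 5 the correlation of Psmb6 with Psmb9 was 0.0348. Leaving out the 2 mice whose inducible gene lay farthest from its median, r was 0.272, -0.281 and -0.142. These p-values do not show that the partners are unrelated.

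**Figure D3:**
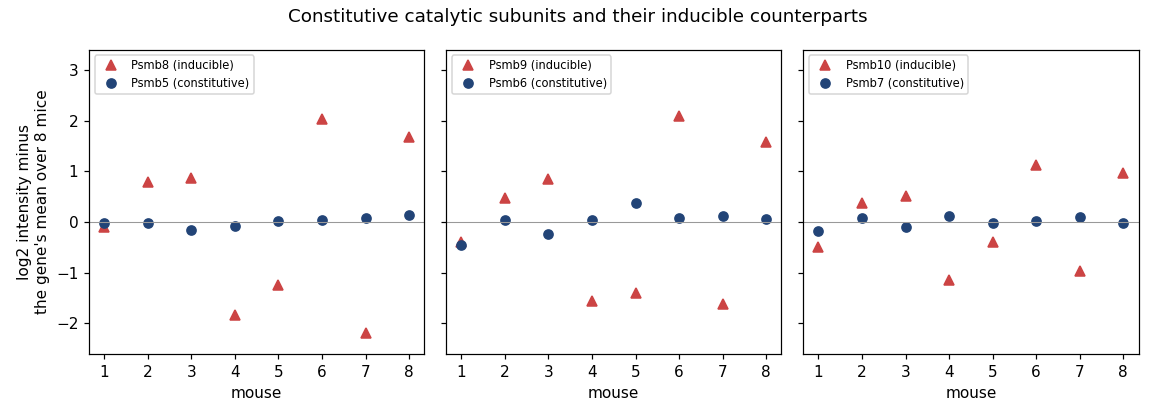
Deviations of log2 intensity from each gene's average are shown by mouse for the 3 catalytic pairs, with triangles for the inducible and circles for the constitutive subunit. The triangles of Psmb8 cover an 18.5-fold range and the circles of Psmb5 a 1.23-fold range.

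The other beta ring genes, which build the ring without an active site, were as level. Psmb4, the member with the highest intensity of the beta ring, read 3611 in mouse 1 and 5034 in mouse 5, with a median of 4795. Psmb3 ranged 1.22-fold, Psmb1 1.5-fold with its highest value in mouse 4 (3041), and Psmb2 1.53-fold with its highest in mouse 6 (1453). Over the 7 beta ring genes the mean log2 deviation from each gene's own mean was -0.18 in mouse 1, against -0.10 to 0.10 in the rest.

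In the alpha ring, ranges lay between 1.3-fold for Psma2 and 1.59-fold for Psma6. Psma3, the brightest, read 4641 in mouse 1 and 6329 in mouse 3, with a median of 5278. Psma6 was lowest in mouse 4 (2996) and highest in mouse 5 (4763), with a median of 3699. The members Psma4 and Psma7 ranged 1.38-fold and 1.37-fold. The alpha ring deviation ran from -0.13 in mouse 1 to 0.11 in mouse 8.

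Psma5 and Psma1 were the members whose levels followed the inducible subunits most closely. To compare all members with immunoproteasome expression, an index was formed in each mouse as the mean log2 deviation of Psmb8, Psmb9, Psmb10 and Psme1, none of which is a member. It was -0.305, 0.47, 0.655, -1.31, -0.834, 1.55, -1.44 and 1.22 in mice 1 to 8, so that it spanned 2.99. Psma5 read 1153, 1200, 1341, 1131, 1063, 1641, 1069 and 1405 in mice 1 to 8, and the 4 mice with an index above 0 were its 4 highest. Its slope was 0.18 ± 0.05 (SE) on the log2 scale per unit of the index, which comes to 1.44-fold over the range of the index (95% interval 1.16 to 1.78). Psma1 read 683, 767, 767, 652, 688, 912, 716 and 979, again with the same 4 mice highest, and its slope was 0.16 ± 0.05, or 1.39-fold over that range (1.11 to 1.75).

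Neither slope passed the test over all genes. The limma adjusted p was 0.0615 for Psma5 and 0.107 for Psma1, with unadjusted p-values of 0.00351 and 0.00928. In exact permutation tests taken singly, among 39 members compared with the index, Psma5 gave r = 0.915 (p = 0.000546) and rho = 0.929 (p = 0.00223), and Psma1 gave r = 0.87 (p = 0.00382) and rho = 0.786 (p = 0.0279). Without the 2 mice farthest from the median index, r was 0.891 and 0.896. Without mouse 6 the slope of Psma5 was 0.14 with an adjusted p of 0.352, and over its 18 other settings with this index the adjusted p ran from 0.0543 to 0.352. Without mouse 5 the slope was 0.167 for Psma5 (adjusted p = 0.0864) and 0.157 for Psma1 (adjusted p = 0.135). Without mouse 6 or mouse 8 the adjusted p for Psma1 was 0.361 or 0.358. Both slopes were smallest with arrays scaled to a common median, 0.131 for Psma5 and 0.113 for Psma1 (limma adjusted p = 0.201 and 0.265). Markers of macrophages moved with the same mice. Of the 13 macrophage genes bright enough to test (of 16 listed), 11 rose with the index at an adjusted p under 0.05, and their mean log2 deviation ran from -0.85 in mice 4 and 7 to 1.72 in mouse 6. Of the T and NK cell genes, 3 of 10 were bright enough to test and 2 rose with the index, while Cd3e, Cd3d, Cd3g and Cd8a were too dim. The part of these cells in the Psma1 and Psma5 values was not tested.

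**Figure D4:**
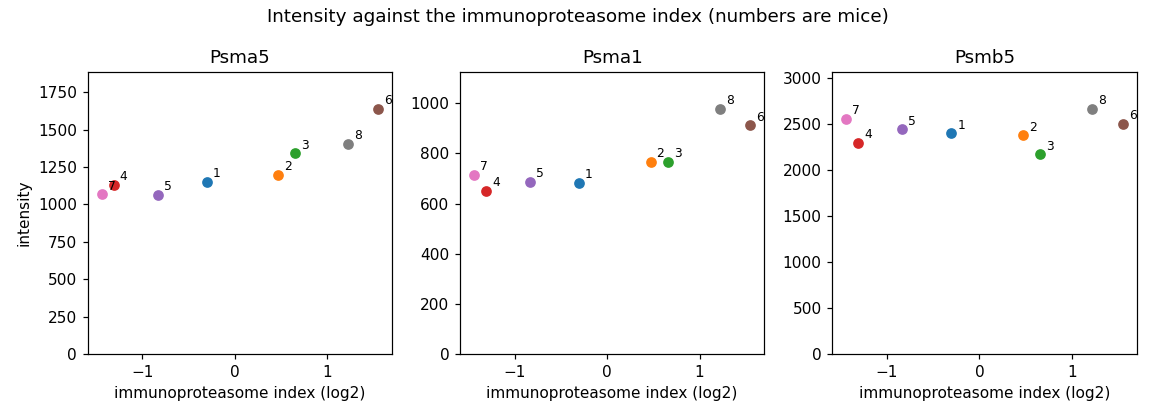
Intensity is plotted against the immunoproteasome index for Psma5, Psma1 and Psmb5, with each point numbered by mouse and the vertical axis from 0. Psma5 and Psma1 are highest in mice 6 and 8, and Psmb5 stays between 2171 and 2669.

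Over all members, 0 of 39 passed on the index at an adjusted p under 0.05, beside 4.81% of all tested named genes without those of the index (3.7% rising and 1.11% falling). At an unadjusted p under 0.05, 2 of 39 rose (5.13%, beside 9.68% of all genes) and 0 fell (beside 10.3%). The slope was above 0 in 22 of 39 members (56.4%, beside 45.6% of all genes), with a median of 0.01 per unit, beside a median of -0.01 over all genes. These signs and medians were read from the intensities as deposited. Rescaling by array medians lowered the slope of Psma5 from 0.175 to 0.131 and that of Psmd5 from -0.163 to -0.217. It also lowered those of Psma1, Psmd8 and Psmd13. Slopes near 0 could thus change sign with the scaling, and the signs were not recounted. The 95% intervals bound the slopes as deposited. They included 0 in 37 of 39 members, and ran from a lowest bound of -0.456 to a highest bound of 0.279 per unit, or 0.388-fold to 1.78-fold over the range of the index, while the inducible genes had slopes of 0.59 to 1.4. Those 4 form the index, so their own slopes are a description of it. For Psmb5 the fold over the range was 1.03 (95% interval 0.83 to 1.27), for Psmb6 0.924 (0.646 to 1.32) and for Psmb7 0.941 (0.759 to 1.17), so each interval includes both rises and falls. The interval was widest for Psmd5, at 0.713-fold (0.388 to 1.31).

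**Figure D5:**
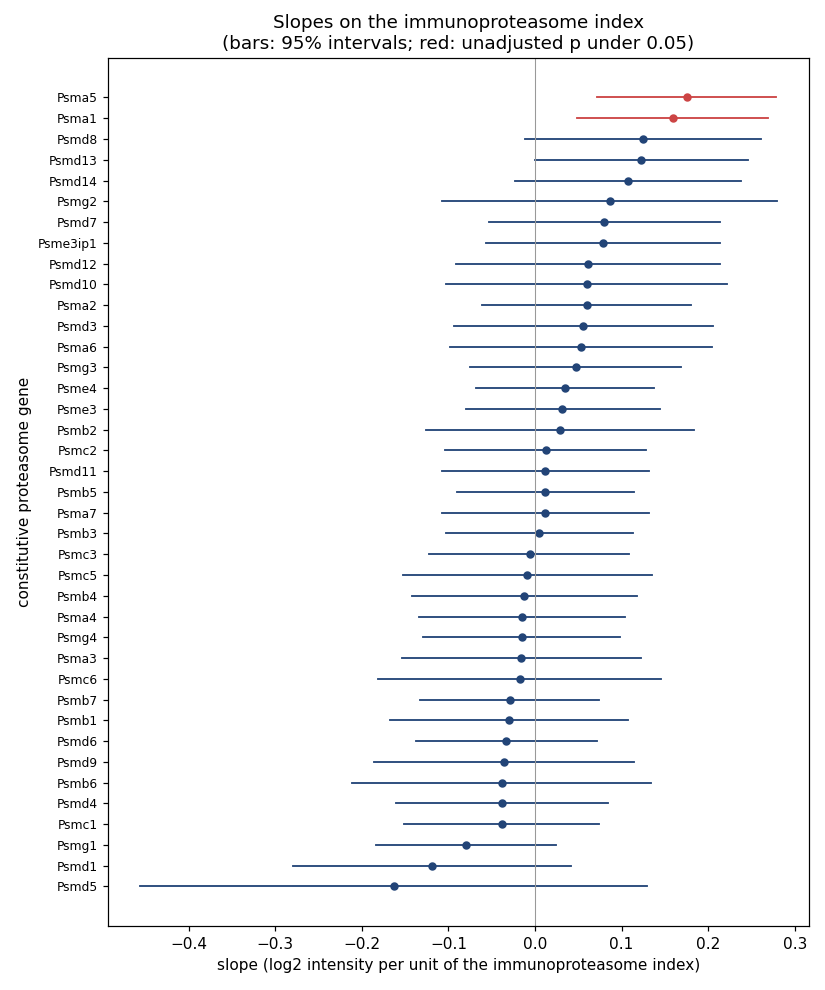
Slopes of log2 intensity per unit of the immunoproteasome index are shown for the 39 members, with 95% intervals as bars. Psma5 and Psma1, in red, are the members with an unadjusted p under 0.05, and 37 intervals include 0.

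The ATPase ring, which unfolds substrates and feeds them into the barrel, had 5 of its 6 genes bright enough to test. Psmc1, Psmc2 and Psmc3 each ranged between 1.27-fold and 1.29-fold. Dimmer tested probe sets of Psmc3 ranged 1.52-fold and 1.7-fold and correlated with the brightest at r = -0.647 and 0.044. The readings of Psmc3 thus depend on the probe set. Psmc6 read 3027 in mouse 1, 4665 in mouse 2 and a median of 3773. Psmc5 was highest in mouse 4 (1410) and lay between 884 and 1107 elsewhere, a range of 1.6-fold. The ring's mean deviation was highest in mouse 4 (0.15) and lowest in mouse 6 (-0.12), and 1 of its 5 slopes on the index was above 0 as deposited. Psmc4 averaged 39.2 ± 18.7 (SD, n = 8), near the floor of 37.2 set for this table, so its differences between mice could not be read.

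Among non-ATPase genes, Psmd5 had the largest spread of all members. Its product is a chaperone that helps assemble the ATPase ring. It read 682, 572, 273, 454, 753, 537, 508 and 339 in mice 1 to 8. Mice 3 and 8 were low and mice 1 and 5 high. The slope on the index was -0.16 ± 0.13 (adjusted p = 0.559). Its level correlated over the 8 mice with that of Psma4 (r = 0.892), which was also lowest in mouse 3 (2600) and highest in mouse 5 (3587). That pair was picked from 741 pairs as among the highest and is given as a description. The other chaperones named in this group, Psmd9 and Psmd10, ranged 1.43-fold and 1.31-fold.

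The scaffold and lid subunits were narrower. Psmd1, the large scaffold subunit, read 1434 in mouse 6 and 2492 in mouse 5, with a median of 1782. Psmd3 ran the other way, lowest in mouse 5 (1261) and highest in mouse 1 (1958), and r between them was -0.874. That pair was picked from 741 pairs as among the lowest and is given as a description. Both had an extreme value in mouse 5, the mouse with the highest Gapdh ratio, whose part in it was not tested. Psmd14, the deubiquitinase that removes the ubiquitin chain, was like Psmd3 lowest in mouse 5 (720), and it was highest in mouse 8 (1114). Psmd4, a ubiquitin receptor, ranged 1.36-fold, lowest in mouse 6 (1192) and highest in mouse 3 (1616). The lid subunit Psmd6 ranged 1.23-fold, Psmd11 1.31-fold (1954 in mouse 1 to 2558 in mouse 2), Psmd7 and Psmd14 1.55-fold each and Psmd12 1.44-fold. Psmd8 and Psmd13 had the next largest rising slopes on the index after the alpha ring pair, 0.12 ± 0.06 each, with adjusted p-values of 0.298 and 0.259. Psmd13 read 727 in mouse 4, a median of 812 and 1100 in mouse 8. Psmd8 read 743 in mouse 7, a median of 886 and 1097 in mouse 3. Psmd2, the other large scaffold subunit, averaged 48.4 ± 15.6 (SD, n = 8) and was too dim to test.

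Psme4 and Psme3, activators that bind the barrel without ATPases, were among the most level members. Psme4 read 810 in mouse 5, 972 in mouse 6 and a median of 917, and Psme3 read 613 in mouse 8, 765 in mouse 3 and a median of 668. Their interferon inducible relative Psme1 read 964 in mouse 7 and 3813 in mouse 6, a range of 3.96-fold. Psme3ip1, a partner of Psme3, ranged 1.36-fold, and Psmc3ip, which acts in meiotic recombination, averaged 8.43 and was below the floor in every mouse.

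Of the chaperones that assemble the alpha ring, Psmg1, Psmg3 and Psmg4 had log2 SDs between 0.109 and 0.144, and Psmg2 had 0.272, above the 0.232 of the median gene. Psmg1 read 550 in mouse 3, 677 in mouse 4 and a median of 615, and Psmg4 586 in mouse 6, 742 in mouse 1 and a median of 629. Psmg3 read 611 in mouse 4, 846 in mouse 8 and a median of 743. A second, dimmer probe set of Psmg3 ranged 6.67-fold (log2 SD 0.953) and correlated with the first at r = 0.851, so the size of its differences depends on the probe set. Psmg2 had the widest range of the 4, 1.69-fold, with 219 in mouse 5 as the lowest value, 306 as the median and 370 in mouse 6 as the highest. Among these 4 Psmg genes, Psmg1 had the steepest falling slope on the index (-0.08 ± 0.05, limma adjusted p = 0.392). In exact permutation tests taken singly, Psmg1 gave r = -0.764 (p = 0.0327) and rho = -0.738 (p = 0.0458). Without the 2 mice farthest from the median index, r was -0.801.

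Correlations between members over the 8 mice are given as a description. The mean correlation over the 741 pairs of members was 0.037, beside 0.0031 over all pairs of tested genes, and 15.1% of the pairs exceeded 0.5, beside 14.5% of all pairs. Within the rings the mean was higher, 0.205 in the alpha ring, 0.193 in the beta ring and 0.184 in the ATPase ring, and it was 0.183 between the alpha and beta rings. Between the alpha ring and the ATPase ring it was -0.047, and among the non-ATPase genes -0.013. The share of pairs above 0.5 was 19% in the alpha ring, 23.8% in the beta ring and 10% in the ATPase ring, the last under that of all pairs. Without mouse 1, the lowest mouse of the alpha and beta rings, the mean over member pairs was 0.00665. The means within rings are given with all 8 mice only. Points here share an array and its scaling. When each array was scaled to a common median, which moves mouse 5 up by 0.18 on the log2 scale, the mean over member pairs was 0.199 beside 0.083 over all pairs. The mean deviation of all 39 members ran from -0.074 in mouse 1 to 0.050 in mouse 8 as deposited, and to 0.21 in mouse 5 with that scaling.

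Mouse 1 was the lowest in 11 of 39 members (28.2%), beside 7.7% of all tested genes, and the highest in 2. Among them were Psmb6, Psmb7, Psmb4, Psmb1, Psma7 and Psmc6, so 4 of the 7 beta ring genes were lowest there. The count was 12 with arrays scaled to a common median (30.8%, beside 9.78%) and 10 with quantile normalization (25.6%, beside 8.79%). The Gapdh ratio of mouse 1 was 0.885, within the range of the other mice except mouse 5. Mouse 5 was the highest in 9 members and the lowest in 6 (23.1% and 15.4%), beside 20.8% and 21.0% of all genes.

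Over the 9 pairs of tested probe sets of 1 gene, the correlation over mice had a median of -0.05 and exceeded 0.5 in 1 pair. The pair of Psmb5 gave -0.36, with the dimmer probe set highest in mouse 1 (602) and the brighter in mouse 8. The brightest probe sets of Psma3, Psmb4, Psmb5, Psmb7, Psmc3, Psmd9, Psmd12 and Psmg3 carry the array's suffixes for probe sets that relaxed the design rules or can match related transcripts, so those readings are less certain.

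Nfe2l1 is a transcription factor known to raise proteasome genes when the proteasome is impaired. It read 1425, 1183, 1269, 1210, 1289, 1244, 1524 and 1365 in mice 1 to 8, a range of 1.29-fold, highest in mouse 7. In limma, 0 of 39 members had a slope on Nfe2l1 at an adjusted p under 0.05 (beside 0% of all genes) or at an unadjusted p under 0.05 (beside 0.883% rising and 0.267% falling), and the slope was above 0 in 14 of 39 (35.9%, beside 52.3% of all genes). The narrow range of Nfe2l1 limits what these slopes can show. Nfe2l1 fitted on itself had a limma unadjusted p of 0.0272 and an adjusted p of 0.9977. A gene that followed it exactly was thus not called, and the 0 of 39 cannot show that members do not follow it. Its relative Nfe2l2 ranged 1.3-fold, with mouse 7 lowest (977) and mouse 8 highest (1272).

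Other genes of the ubiquitin system were taken from lists. Of 4 tested genes of ubiquitin enzymes, 11 of receptors, shuttles, deubiquitinases and assembly, 6 of the Vcp system and 6 regulators, 0 passed the test of spread and 0 the slope on the index at an adjusted p, and likewise 0 at an unadjusted p. Of all tested genes, 0% passed on spread and 4.81% on the index at an adjusted p under 0.05. At an unadjusted p under 0.05, 5.65% passed on spread, while 9.68% rose and 10.3% fell on the index. The median SDs of these lists were 0.251, 0.205, 0.214 and 0.266 on the log2 scale, in the order named. Pomp, which matures the core particle, read 1781 in mouse 4, 3314 in mouse 3 and between 1952 and 3188 in the others. Usp14, a deubiquitinase of the regulatory particle, ranged 1.25-fold, Ecpas, a proteasome adaptor, 1.24-fold, and Vcp, the ATPase that extracts ubiquitinated proteins, 1.29-fold. Ube2d3, a ubiquitin conjugating enzyme, ranged 1.91-fold, lowest in mouse 6 (578) and highest in mouse 3 (1105). Bach1, a repressor at antioxidant response elements, ranged 2.75-fold, lowest in mouse 1 (533) and highest in mouse 6 (1464).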

How the data were processed

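RNA from 8 livers, 1 Affymetrix U74Av2 array per mouse, was scanned on a Hewlett-Packard GeneArray scanner, per the labels. The authors deposited 1 intensity per probe set and array, already scaled (the mean without the lowest and highest 2% had a coefficient of variation of 0.00455% over arrays). Which software summarized the probes was not given in the sources used here. Each array column was tied to its label, leaving 0 unused.

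Deposited values under 37.2, their 25th percentile, were set to it before taking log2. Testing was limited to probe sets averaging 165.2 or more (6265 of 12488). Probe sets with several symbols were not named, which left Psme2 out of the index. Tests were made with limma 3.58.1 in R 4.3.3 over all tested probe sets, with Benjamini-Hochberg adjustment. The test of spread is a one-sided F test of each variance (7 degrees of freedom) against the brightness trend (squeezeVar, prior degrees of freedom 3.8). Slopes were fitted with lmFit and eBayes with an intensity trend. Permutation tests used all 40320 pairings. The tests were tried on simulated data. The members, lists and tests were chosen with earlier results of these data known. Every member is accounted for. Values by mouse were printed for the catalytic subunits, the brightest and most variable member of each role, the activators, the assembly chaperones and the members with the largest slopes on the index, and other values shown were chosen after they were seen. The number of arrays limits the precision.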

Additional observations from a re-analysis of the deposited data

Results flagged for a closer look

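Dixon's test sets the gap between an extreme mouse and its neighbour against the whole range. In the brightest probe sets, 0 of 39 members had a mouse standing apart (beside 8.69% of all tested genes), and chance gives about 1 in 20. Among the other tested ubiquitin system genes (4 of enzymes, 11 of receptors and assembly, 6 of the Vcp system and 6 regulators), 2 did. That count is not above the share of all tested genes. Both fell in mouse 5, which was the highest in 20.8% and the lowest in 21% of all tested genes. Sem1, a small subunit of the regulatory particle whose symbol lies outside the rule for the members, read 2463 there, against 1923 to 2159 elsewhere. Its probe set carries a suffix for relaxed design rules, so this reading is less certain. Mafg, a partner of the Nfe2l1 family of transcription factors, read 433.6 there, against 641 to 764 elsewhere. Mouse 5 also had the highest ratio of 3′ to 5′ Gapdh probe sets (2.67), whose part in these values was not tested.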

How the results depend on the processing

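No count of members changed to a call on the index or on Nfe2l1 under any of the alternatives run (0 in each). For Nfe2l1 this says little of the members, since Nfe2l1 fitted on itself was not called either. The test of spread called 0 members in all but the chi-square test, which called 1. As reported above, the F test called 0% of all genes, so its 0 says little of the members. The median SD of the members stayed between 0.15 and 0.181 when single mice were left out, and the mean correlation between members between 0.00665 and 0.0508. That correlation moved with arrays scaled to a common median, to 0.199. The correlation of Psmb5 with Psmb8 changed sign with that scaling (-0.46), with a gene's probe sets averaged (-0.196) and without family probe sets (-0.246), and ranged from -0.188 to 0.397 without single mice, with negative values without mouse 4 or mouse 8. That of Psmb6 with Psmb9 ranged from -0.437 to 0.0348 without single mice (positive without mouse 5), and that of Psmb7 with Psmb10 from -0.625 to -0.0396. The causes were not tested, and none of these correlations passed its exact permutation test. Among 746 other values, mostly SDs of single members, 714 were labelled unchanged. For SDs this meant a move within their jackknife error over mice, for slopes the same sign and call, and for counts a change within 1.5 times. Another 26 moved by more than their jackknife error, and 6 were counts at an unadjusted p under 0.05 that changed by more than 1.5 times. The count for spread was 1 in 4 settings, and the count rising on the index, 2 as reported, ran from 1 after scaling to a common median to 4 with no filter on brightness. A planned run without family probe sets gave no value for Psmb7 with Psmb10, since Psmb7 is read from one. No paired analysis was possible because the labels give 1 group.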

Other observations

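Psmg3 and Psmd11 had a second probe set with a much wider range than the brightest. The dimmer probe set of Psmg3 read 331, 100, 350, 66.1, 220, 272, 156 and 441 in mice 1 to 8, a range of 6.67-fold, where the brighter ranged 1.38-fold, and the pair correlated at r = 0.851 over the mice. For Psmd11, a probe set with a mean of 1009 read 447 in mouse 5, against 887 to 1290 elsewhere, where the brightest probe set had 2183 in mouse 5, within its range of 1954 to 2558. Dixon's test was run only on the brightest probe set of each gene, so the counts above leave out this low value.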
